A study of Mus musculus with 8 samples.

Results

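Interferon-stimulated genes were examined in sorted microglia of mutants (*Smad2/3* fl/fl;*Cx3cr1* Cre) and of controls. The genes were 47 well-known targets of type I and type II interferon, listed by name with no threshold on their change. The list was chosen with earlier results of these data known. A listed gene was kept when 4 or more of the 8 libraries held 10 counts or more in the deposited table. All 47 of 47 listed genes met that rule, among 20153 that met it in the whole table of 55573 genes. There were 8 libraries from brains at postnatal day 60, with 4 in each group. The labels number the libraries but do not say that each is a separate animal. The study's methods state in general that biological replicates came from different mice, without naming these libraries. The p-values measure the spread between libraries, which may in part be technical. In mutants the Cre recombinase made from the *Cx3cr1* locus, which is active in microglia and also in other brain macrophages, deletes floxed parts of *Smad2* and *Smad3*. These encode the transcription factors of canonical TGFβ signalling. The labels call the controls WT and do not give their alleles, while the study's methods describe controls that in general carried Cre and 1 floxed allele. The labels name the cells only as sorted microglia. The methods describe mononuclear cells taken from a Percoll gradient, among which live single tdTomato+ cells were examined for CD45 and CD11b, a gate that other CD11b+ macrophages of the brain can also pass.

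Interferons are secreted proteins that cells release after they sense foreign or misplaced nucleic acid. Type I interferons bind the receptor made of IFNAR1 and IFNAR2. The kinases JAK1 and TYK2 then act on transcription factors, STAT2 among them, that join IRF9 in a complex that binds the interferon-stimulated response element (ISRE) in the promoters of target genes. Type II interferon acts through another receptor and through another element, the gamma-activated site (GAS). In the brain, microglia are a main responding cell, and interferon-responsive microglia are known from ageing, infection and amyloid models.

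Many of the 47 genes hold in their promoter windows the core letters of the ISRE. Stretches that hold them are shown because genes that rose and genes without a call both held them. A match of letters is a description, and binding was not measured. RefSeq promoter windows of GRCm38.p6, from 250 bases before to 50 bases after the annotated start, were found for 36 of the 47 genes. The ISRE core, searched on both strands as GAAA, 2 free bases and GAAA again, was in the windows of 24 of 36 genes (66.7%), against 1079 of 27025 genes with a window (3.99%). The GAS core, searched as TTCNNNGAA, which reads the same on both strands, was in 9 of 36 (25%) against 2582 of 27025 (9.55%). Of 36 ISRE matches in these windows, 2 shared bases with a GAS match, in *Bst2* and *Ifitm3*. Capitals mark ISRE matches in the stretches below, which are written 5′ to 3′ along the strand of the gene and end at or before the base in front of the RefSeq start. The first is *Isg15*, a textbook target, at chr4:156200855-156200916 on the minus strand, with 3 overlapping matches, the first beginning 78 bases before the start.
Isg15: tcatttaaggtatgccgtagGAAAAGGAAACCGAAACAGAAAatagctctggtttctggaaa
*Ifit1*, *Ifit3* and *Ifit3b*, of the *Ifit* cluster on chromosome 19, hold pairs of matches. The stretches of *Ifit1* (chr19:34640765-34640833 on the plus strand), *Ifit3* (chr19:34583353-34583436 on the plus strand) and *Ifit3b* (chr19:34607749-34607832 on the plus strand) are compared here because *Ifit3* and *Ifit3b* are identical over all 84 bases shown.
Ifit1: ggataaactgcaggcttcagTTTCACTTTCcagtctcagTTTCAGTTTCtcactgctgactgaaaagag
Ifit3: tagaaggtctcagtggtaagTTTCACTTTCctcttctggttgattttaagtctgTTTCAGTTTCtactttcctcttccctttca
Ifit3b: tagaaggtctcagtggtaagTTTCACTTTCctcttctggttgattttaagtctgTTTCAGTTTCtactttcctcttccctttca
*Oas1a* (chr5:120907526-120907565 on the minus strand) holds overlapping matches that begin 20 bases before the start, and *Bst2* (chr8:71537567-71537622 on the minus strand) holds overlapping matches that begin 130 bases before it.
Oas1a: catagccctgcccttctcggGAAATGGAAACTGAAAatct
Bst2: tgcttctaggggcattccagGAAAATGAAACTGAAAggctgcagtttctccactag
*Ifi207* (chr1:173741821-173741870 on the minus strand) and *Ifi211* (chr1:173913054-173913103 on the minus strand), of the same cluster on chromosome 1, were identical at 42 of 50 positions, with 1 match each at a like distance from the start.
Ifi207: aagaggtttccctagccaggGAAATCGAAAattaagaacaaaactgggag
Ifi211: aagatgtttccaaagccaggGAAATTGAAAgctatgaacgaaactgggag
*Igtp* (chr11:58199502-58199551 on the plus strand) and *Gbp7* (chr3:142530263-142530312 on the plus strand), interferon-inducible GTPases that were picked after their values were seen, as genes without a call, have matches that begin 34 and 53 bases before their starts, with the letters of *Gbp7* being those of *Igtp* read on the other strand.
Igtp: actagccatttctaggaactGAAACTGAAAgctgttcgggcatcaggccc
Gbp7: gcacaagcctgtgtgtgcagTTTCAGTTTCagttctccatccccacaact
*Ifitm2* (chr7:140955978-140956027 on the minus strand) and *Slfn5* (chr11:82951927-82951976 on the plus strand) rose and hold 1 match each, 46 and 155 bases before their starts.
Ifitm2: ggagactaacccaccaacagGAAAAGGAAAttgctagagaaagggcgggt
Slfn5: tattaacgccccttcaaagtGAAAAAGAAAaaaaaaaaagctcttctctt
GENCODE M21 places 10 exon bases, of *Ifitm2* itself, in the stretch of *Ifitm2* and none in the others. The stretch of *Slfn5* lies before the RefSeq start but inside the GENCODE span of *Slfn5*, which begins at 82951349. *Ifitm3* also held the ISRE core, within the transcribed part of its window, and is not shown. *Oas2*, *Dhx58*, *Zbp1*, *Ifi204*, *Usp18*, *Mx1*, *Mx2*, *Rtp4*, *Ifi27*, *Parp9* and *Parp14* were without a window.

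The libraries held between 35639502 and 41946479 counts, and the correlation of log2 CPM (CPM being counts scaled to a common library size by TMM) between libraries was 0.894 to 0.943 among controls, 0.87 to 0.929 among mutants and 0.803 to 0.877 between the groups. *Smad3* was lower in mutants (log2 fold change -1.33, adjusted p = 0.0429) and *Smad2* was not called (-0.34, adjusted p = 0.34), where counts cover whole genes and not only the floxed parts. Mutant replicate 3 had the most *Smad3* among mutants, 35.1 CPM, where the rest had 9.61 to 17.5 CPM and no control was below 39.5 CPM. Sex is not stated in the labels. *Xist* was at least 99.5 CPM in all 4 controls and at most 0.562 CPM in all 4 mutants, and *Ddx3y*, a Y-linked gene, was at most 0.224 CPM in controls and at least 9.74 CPM in mutants. Genotype and sex cannot be told apart in any comparison here. The 6 microglial markers examined, *P2ry12*, *Tmem119*, *Cx3cr1*, *Csf1r*, *Sall1* and *Siglech*, all fell in mutants and together summed to 22018 to 34941 CPM in controls and 4164 to 6318 CPM in mutants. That sum was above the sum for each of 13 other cell types in all libraries except mutant replicate 4, where red cell markers summed to 4918 CPM. Markers of border-associated macrophages summed to 26.4 to 36.6 CPM in controls and 1565 to 2432 CPM in mutants, with 4 of 5 called higher. Markers of T and NK cells summed to 12 to 35.7 CPM in controls and 46 to 124 CPM in mutants, with 2 of 5 called higher. Astrocyte and plasmacytoid dendritic cell sums were lower in every mutant than in every control, but 1 of 5 astrocyte markers, *Slc1a3*, and 1 of 2 tested plasmacytoid dendritic cell markers, *Cox6a2*, were called lower. *Slc1a3* held most of the astrocyte sum in controls, with a mean of 1349 CPM, and was at 78.9 CPM in mutants, and *Gfap* (log2 fold change 0.65), *Aqp4* (0.73) and *Aldoc* (-0.01) were not called. The sums of the other 9 cell types overlapped, and no marker examined was at 0 in all libraries. In such bulk libraries fewer cells of a type and less RNA per cell cannot be told apart, and the part of these cell types in the results below was not tested.

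Interferon-stimulated genes were for the most part higher in mutant microglia. Of the 47 genes, 19 (40.4%) rose at an adjusted p-value under 0.05 and 0 fell, where 878 of all 20153 tested genes (4.36%) rose and 1607 (7.97%) fell. The fold change was above 1 for 38 of the 47 genes (50.6% of all tested genes), and the median log2 fold change of the 47 was 1.16, with a range of -0.75 to 5.14, against 0.01 over all tested genes. In 23 of the 47 genes every mutant was above every control in CPM (9.04% of all tested genes), and in 1, *Dtx3l*, every mutant was below every control (13% of all tested genes). The other 23 overlapped. At an unadjusted p-value under 0.05 in edgeR, 27 were higher and 1, *Dtx3l*, was lower. Of all 20153 tested genes, 5785 passed that threshold in either direction. By DESeq2, 26 of the 47 rose and 1 fell, with 9.44% and 11.8% of all tested genes. In simulated counts 33.7% of DESeq2 calls were false, against 4.26% of edgeR calls. Those counts were drawn with edgeR's estimates of spread and had 189 of 19324 genes changed. These shares therefore do not carry over to the calls here, and calls by DESeq2 alone did not pass the main test. The genes called belonged to the OAS, PYHIN, IFIT, IFITM and Schlafen families and to ISG15 conjugation, among others, while in edgeR none of the 5 interferon-inducible GTPases and none of the 5 signalling genes was called. When each library was left out in turn, 16 of the 19 calls were kept in all 8 fits, and *Ifit3b*, *Zbp1* and *Slfn5* lost theirs in at least 1. Without mutant replicate 3, the mutant with most *Smad3*, 19 genes were called higher. These were 18 of the 19 above and *Mx1*, while *Slfn5* lost its call.

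**Figure D1:**
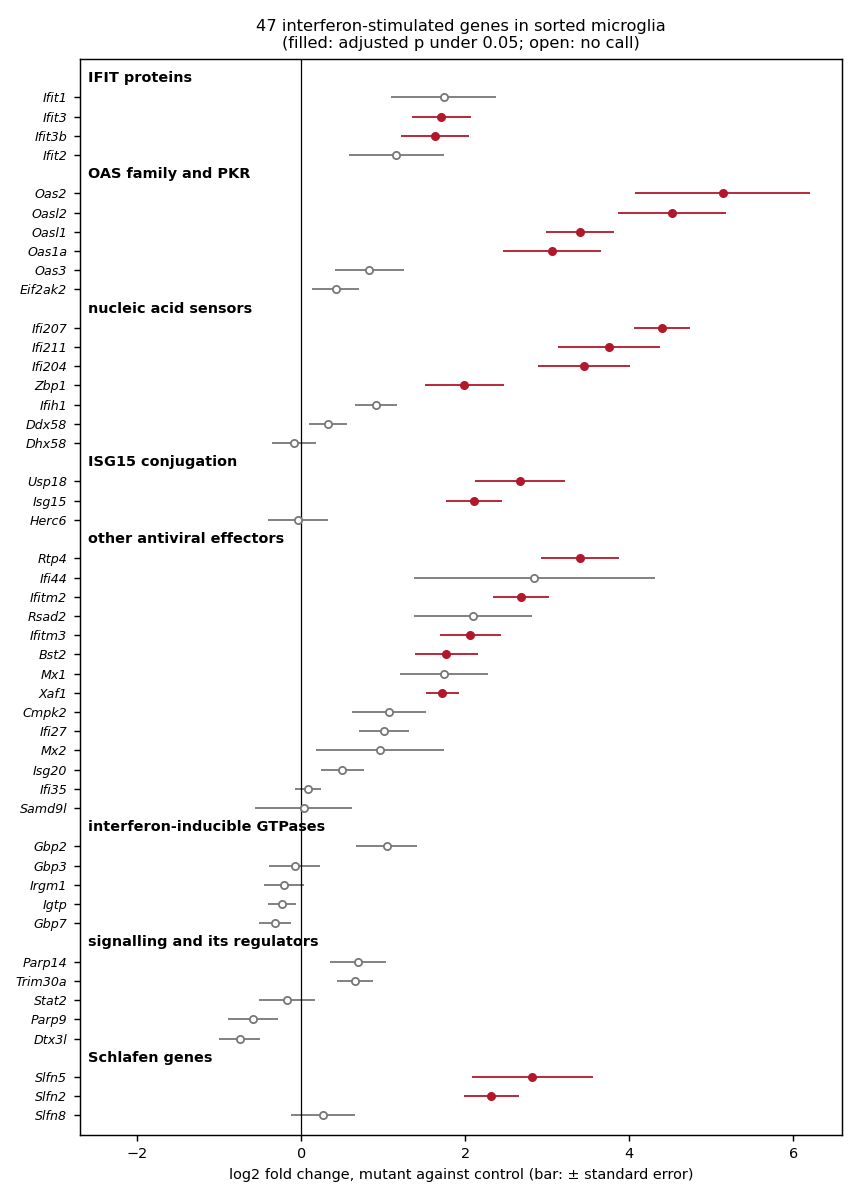
Log2 fold change of each of the 47 genes in mutants against controls (x axis, log2 units, bars ± standard error), grouped by role, with filled points for the 19 genes called higher at an adjusted p-value under 0.05 and open points for the 28 without a call. *Oas2*, at 5.14, lies farthest right, and the GTPases other than *Gbp2* lie just left of 0.

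The 47 genes together were lower in every control than in every mutant, and control replicate 2 was the highest control. Averaged over the 47 genes, log2 CPM was 2.83, 3.53, 2.62 and 2.64 in control replicates 1 to 4 and 4.71, 4.30, 4.72 and 4.35 in mutant replicates 1 to 4. The group means were 2.90 ± 0.43 in controls and 4.52 ± 0.23 in mutants (SD, n = 4 each), a difference of 1.62 on the log2 scale, and the groups did not overlap. Control replicate 2 was the highest control for 31 of the 47 genes. Its share of mitochondrial counts, 1.88%, lay inside the range of the controls (0.819% to 4.6%), and mutants held 3.04% to 4.56%. Among controls it had the highest sums of neutrophil markers, 2565 CPM against 548 to 1438 CPM, and of monocyte markers, 359 CPM against 148 to 231 CPM. Mutants were at 259 to 804 CPM and 126 to 263 CPM, and the part of these cells in its values was not tested. With that library left out, the same 19 genes were called. Controls varied more than mutants for 28 of the 47 genes (59.6%), against 43.1% of all tested genes, with a median SD on the log2 scale of 0.59 in controls and 0.46 in mutants for the 47 and of 0.42 and 0.46 for all tested genes.

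The OAS genes had the highest median of any role, a log2 fold change of 3.23 over 6 genes, of which 4 rose. Oligoadenylate synthetases make the second messenger that switches on RNase L, which cleaves viral and cellular RNA, and PKR, encoded by *Eif2ak2*, shuts down translation when it binds double-stranded RNA. *Oas2* (ENSMUSG00000032690) was at 0, 1.48, 0.588 and 0.0807 CPM in controls 1 to 4 and 17.5, 20, 29.2 and 9.66 CPM in mutants 1 to 4. Every mutant was above every control, 1 control had no count, and the means were 0.538 ± 0.682 CPM in controls and 19.1 ± 8.05 CPM in mutants (SD, n = 4 each) (log2 fold change 5.14, SE 1.07, adjusted p = 0.0146). *Oasl2* (ENSMUSG00000029561), whose protein is OAS-like, was at 1.29, 3.83, 0.42 and 1.37 CPM in controls 1 to 4 and 35.8, 18.8, 62.7 and 41.4 CPM in mutants 1 to 4. All 4 mutants, at 18.8 CPM or more, exceeded all 4 controls, at 3.83 CPM or less (log2 fold change 4.52, SE 0.66, adjusted p = 0.00267). Its neighbour *Oasl1* (ENSMUSG00000041827), known to restrain translation of *Irf7*, was at 5.02, 10.4, 3.36 and 4.25 CPM in controls 1 to 4 and 66.8, 47.3, 89.6 and 40.3 CPM in mutants 1 to 4. Again the groups were apart, with mutant replicate 3 the highest library (log2 fold change 3.40, SE 0.42, adjusted p = 0.00108). *Oas1a* (ENSMUSG00000052776) was at 1.89, 12.9, 3.36 and 2.82 CPM in controls 1 to 4 and 37.3, 30.7, 57.2 and 50.3 CPM in mutants 1 to 4. Control replicate 2 stood above the other controls yet below every mutant (log2 fold change 3.06, SE 0.60, adjusted p = 0.011). Of the words of 50 bases in *Oas1a* transcripts, 57.6% also occur in transcripts of other genes, mostly *Oas1g*, so its counts are uncertain between them. *Oas1g* rose as well (log2 fold change 3.63, SE 0.45, adjusted p = 0.00108). *Oas3* was at 1.04 ± 0.145 CPM in controls and 1.85 ± 0.55 CPM in mutants (SD, n = 4 each) without overlap and without a call (log2 fold change 0.83, SE 0.42, adjusted p = 0.233), and *Eif2ak2* was at 7.95 ± 2.08 CPM in controls and 10.6 ± 2.56 CPM in mutants (SD, n = 4 each) (log2 fold change 0.42, SE 0.29, adjusted p = 0.375). These *Oas* genes lie in 2 places on chromosome 5, *Oasl2* and *Oasl1* between 114896936 and 114937915 of GRCm38 and *Oas2*, *Oas3* and *Oas1a* between 120730333 and 120907521. Of these 5 genes, *Oas3* was the one without a call, and *Oas1c*, which lies in the same stretch, was not called either.

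Of 7 nucleic acid sensors, the 3 PYHIN genes and *Zbp1* rose, and the 3 genes of RNA helicases were not called in edgeR, while DESeq2 called *Ifih1* of these. The PYHIN genes *Ifi204*, *Ifi207* and *Ifi211* encode nuclear proteins that bind DNA, and ZBP1 binds nucleic acid in the Z form and can start necroptosis. *Ifi207* (ENSMUSG00000073490) was at 5.3, 7.47, 6.07 and 2.99 CPM in controls 1 to 4 and 146, 99.6, 140.4 and 76.9 CPM in mutants 1 to 4. The lowest mutant, at 76.9 CPM, was far above the highest control, at 7.47 CPM. It had the smallest adjusted p-value of the 47 (log2 fold change 4.40, SE 0.34, adjusted p = 1.0e-04). *Ifi204* (ENSMUSG00000073489) was at 5.48, 8.15, 1.09 and 3.15 CPM in controls 1 to 4 and 66, 36.8, 59 and 33.9 CPM in mutants 1 to 4, with no overlap (log2 fold change 3.45, SE 0.56, adjusted p = 0.00435). *Ifi211* (ENSMUSG00000026536) was at 1.47, 2.27, 0.252 and 0.592 CPM in controls 1 to 4 and 16.6, 10.5, 18.1 and 16.7 CPM in mutants 1 to 4. Its controls were at 2.27 CPM or less and its mutants at 10.5 CPM or more (log2 fold change 3.75, SE 0.62, adjusted p = 0.00485). Transcripts of *Ifi211* share 72.8% of their words of 50 bases with other genes, mostly *Ifi205*, and those of *Ifi204* share 20%, so reads could be split among these near copies. The 3 genes lie in the interferon-inducible cluster of chromosome 1, where *Ifi203*, *Ifi213* and *Mndal* also rose and *Aim2* and *Ifi209* did not pass the test. *Zbp1* (ENSMUSG00000027514) (chromosome 2 from 173206612 to 173218923) was at 2.59, 6.14, 1.29 and 2.82 CPM in controls 1 to 4 and 19.7, 10.5, 11.2 and 9.63 CPM in mutants 1 to 4, with every mutant above every control (log2 fold change 1.99, SE 0.48, adjusted p = 0.028). The call for *Zbp1* was lost when control replicate 1, 3 or 4 or mutant replicate 1 or 2 was left out, with adjusted p-values of 0.0516 to 0.0643. *Ifih1*, which encodes MDA5, was at 5.8 ± 0.932 CPM in controls and 10.9 ± 2.41 CPM in mutants (SD, n = 4 each) without overlap (log2 fold change 0.91, SE 0.26, adjusted p = 0.0502), and was called by DESeq2 (adjusted p = 0.00704). In edgeR it was called with library totals (adjusted p = 0.0276), with 10 counts required in all 8 libraries (0.0476) and without mutant replicate 2 (0.0429). *Ddx58*, which encodes RIG-I, was at 14.9 ± 3.23 CPM in controls and 18.7 ± 3.67 CPM in mutants (SD, n = 4 each) (log2 fold change 0.33, SE 0.23, adjusted p = 0.386), and *Dhx58*, which encodes their relative LGP2, was at 16.7 ± 6.53 CPM in controls and 15.8 ± 2.32 CPM in mutants (SD, n = 4 each) (log2 fold change -0.09, SE 0.27, adjusted p = 0.878).

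**Figure D2:**
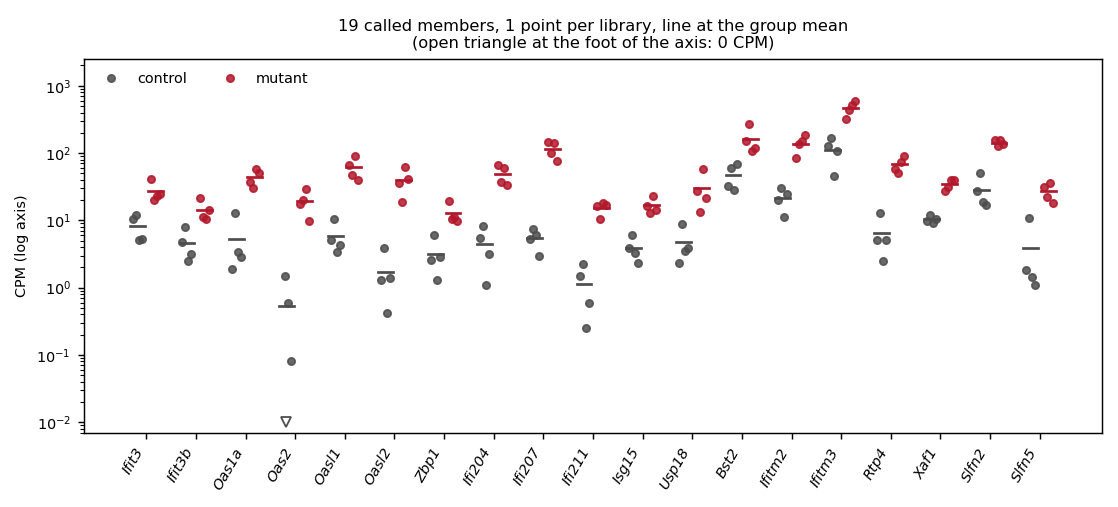
CPM of the 19 genes called higher (y axis, log scale), with 1 point for each of the 4 control and 4 mutant libraries and a line at the group mean. In all 19 genes the lowest mutant lies above the highest control, and the library of *Oas2* with 0 CPM is drawn as an open triangle at the foot of the axis.

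IFIT proteins bind viral RNA through repeats that hold its end. *Ifit3* (ENSMUSG00000074896) was at 10.6, 11.9, 5.09 and 5.33 CPM in controls 1 to 4 and 40.6, 20, 22.9 and 24.3 CPM in mutants 1 to 4. The controls split into a higher and a lower pair, and every mutant was above both (log2 fold change 1.71, SE 0.36, adjusted p = 0.0155). *Ifit3b* (ENSMUSG00000062488) was at 4.71, 8.02, 2.49 and 3.2 CPM in controls 1 to 4 and 21.3, 11.2, 10.4 and 14.1 CPM in mutants 1 to 4, also without overlap (log2 fold change 1.63, SE 0.41, adjusted p = 0.0346). These genes share 51.2% and 45% of their words of 50 bases, mainly with each other, so their counts are uncertain between them. The call for *Ifit3b* was lost when control replicate 1, 3 or 4 or mutant replicate 1, 2 or 4 was left out, with adjusted p-values of 0.0589 to 0.0804. *Ifit1* was at 4.01, 0.859, 2.13 and 1.26 CPM in controls 1 to 4 and 10.5, 6.35, 8.94 and 1.82 CPM in mutants 1 to 4, and mutant replicate 4 lay inside the range of the controls (log2 fold change 1.74, SE 0.64, adjusted p = 0.108). DESeq2 called *Ifit1* (adjusted p = 0.0306). *Ifit2* overlapped too, with 4.13 ± 2.97 CPM in controls and 9.21 ± 3.51 CPM in mutants (SD, n = 4 each) (log2 fold change 1.16, SE 0.58, adjusted p = 0.223). All 4 genes lie together on chromosome 19 between 34550694 and 34650009.

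The ubiquitin-like protein ISG15 is joined to target proteins and is removed from them by USP18, which also holds back the type I interferon receptor. *Isg15* (ENSMUSG00000035692) (chromosome 4 from 156199424 to 156200818) was at 3.85, 5.96, 3.27 and 2.34 CPM in controls 1 to 4 and 16.3, 12.9, 23.2 and 14.2 CPM in mutants 1 to 4. The groups did not overlap, with 3.86 ± 1.54 CPM in controls and 16.6 ± 4.58 CPM in mutants (SD, n = 4 each) (log2 fold change 2.11, SE 0.34, adjusted p = 0.00439). *Usp18* (ENSMUSG00000030107) (chromosome 6 from 121245906 to 121270917) was at 2.35, 8.96, 3.55 and 3.9 CPM in controls 1 to 4 and 26.9, 13.5, 57.2 and 21.6 CPM in mutants 1 to 4. It varied more among mutants than *Isg15* did, with mutant replicate 3 the highest, but no mutant reached down to the controls (log2 fold change 2.67, SE 0.55, adjusted p = 0.0139). *Herc6*, the main ligase that attaches ISG15 in mice, was at 9.04 ± 2.77 CPM in controls and 8.77 ± 3.69 CPM in mutants (SD, n = 4 each) (log2 fold change -0.04, SE 0.37, adjusted p = 0.957), and its sign turned when control replicate 1 or 2 or mutant replicate 2 or 4 was left out and with library totals as the scale.

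Among the other antiviral effectors, 5 of 14 rose, and those of membrane proteins were the most abundant. IFITM proteins block the fusion of viruses with membranes, and BST2, also called tetherin, holds budding virus at the cell surface. *Ifitm3* (ENSMUSG00000025492) was at 127, 167, 45.6 and 107 CPM in controls 1 to 4 and 322, 429, 525 and 589.6 CPM in mutants 1 to 4. It had the highest level per length of the 47 genes in both groups, and its mutants lay well above its controls (log2 fold change 2.06, SE 0.37, adjusted p = 0.00768). *Ifitm2* (ENSMUSG00000060591) was at 20.4, 30.1, 11.2 and 24.6 CPM in controls 1 to 4 and 84.7, 135, 150.1 and 184 CPM in mutants 1 to 4, with no overlap (log2 fold change 2.68, SE 0.34, adjusted p = 0.00129). Both lie on chromosome 7, *Ifitm2* from 140954837 to 140955987 and *Ifitm3* from 141009586 to 141010770, and *Ifitm2* shares 48.5% of its words of 50 bases with the overlapping gene *Gm45717*. *Bst2* (ENSMUSG00000046718) (chromosome 8 from 71534255 to 71537456) was at 32.3, 60.2, 28.4 and 68.7 CPM in controls 1 to 4 and 150, 268, 109 and 118 CPM in mutants 1 to 4. Mutant replicate 2 was the highest library, and all 4 mutants were above the controls (log2 fold change 1.77, SE 0.38, adjusted p = 0.0178). *Ifi27* was the most abundant of the genes without a call in edgeR. Its libraries were at 253, 282, 124 and 289 CPM in controls 1 to 4 and 402, 645, 347 and 511 CPM in mutants 1 to 4, every mutant above every control, with log2 fold change 1.01, SE 0.30, adjusted p = 0.0582. It was called by DESeq2 (adjusted p = 0.00552) and in edgeR with 10 counts required in all 8 libraries (0.0362).

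*Rtp4* (ENSMUSG00000033355) (chromosome 16 from 23520291 to 23614222), which encodes a receptor chaperone that binds viral RNA, was at 5.17, 12.9, 2.46 and 5.11 CPM in controls 1 to 4 and 57.6, 49.8, 73 and 91.1 CPM in mutants 1 to 4. The 4 mutants were at least 49.8 CPM where no control passed 12.9 CPM (log2 fold change 3.40, SE 0.48, adjusted p = 0.00226). *Xaf1* (ENSMUSG00000040483) (chromosome 11 from 72301629 to 72313733), which encodes a partner of the apoptosis inhibitor XIAP, was at 9.93, 12.1, 9.21 and 10.5 CPM in controls 1 to 4 and 26.9, 30.8, 40.3 and 39.6 CPM in mutants 1 to 4. The controls of *Xaf1* were close together, with an SD of 1.21 CPM around a mean of 10.4 CPM, and all mutants lay above them, with an SD of 6.58 CPM around 34.4 CPM (log2 fold change 1.72, SE 0.20, adjusted p = 7.7e-04). *Mx1* was at 2.25, 2.94, 1.45 and 1.34 CPM in controls 1 to 4 and 9.61, 5.12, 2.01 and 10 CPM in mutants 1 to 4, and mutant replicate 3 lay among the controls (log2 fold change 1.74, SE 0.54, adjusted p = 0.0662). It was called without that library (log2 fold change 2.04, adjusted p = 0.0211), by DESeq2 (adjusted p = 0.0113) and with 10 counts required in all 8 libraries (0.0397). *Rsad2*, which encodes viperin, was at 11.5, 3.51, 0.951 and 1.43 CPM in controls 1 to 4 and 24.2, 11.4, 18.2 and 20.4 CPM in mutants 1 to 4. Control replicate 1 reached the lowest mutant (log2 fold change 2.09, SE 0.72, adjusted p = 0.0915), and without it the log2 fold change was 3.23 (adjusted p = 0.00695). DESeq2 called it with all libraries (adjusted p = 0.00992). *Cmpk2*, its neighbour on chromosome 12, was at 6.04 ± 3.11 CPM in controls and 12.7 ± 5.07 CPM in mutants (SD, n = 4 each) (log2 fold change 1.07, SE 0.45, adjusted p = 0.153). *Ifi44* had the largest SE of the 47 and was at 0, 13.4, 5.26 and 0.161 CPM in controls 1 to 4 and 43.4, 25.5, 63.9 and 2.04 CPM in mutants 1 to 4. Mutant replicate 4 and control replicates 2 and 3 crossed, and the log2 fold change of 2.84 had an SE of 1.47 (adjusted p = 0.239). *Mx2*, *Isg20*, *Ifi35* and *Samd9l* had log2 fold changes of 0.96, 0.50, 0.08 and 0.03 with adjusted p-values of 0.471, 0.234, 0.811 and 0.983, and each overlapped between groups. The sign of *Samd9l* turned when control replicate 3 or 4 or mutant replicate 3 or 4 was left out.

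Schlafen proteins control the quiescence of immune cells and restrict viral translation. *Slfn2* (ENSMUSG00000072620) (chromosome 11 from 83065112 to 83070678) was at 27.6, 51.2, 19 and 16.9 CPM in controls 1 to 4 and 156, 126, 154 and 137 CPM in mutants 1 to 4. Mutants were even, with an SD of 14.4 CPM around 143 CPM, and the highest control was at 51.2 CPM (log2 fold change 2.32, SE 0.34, adjusted p = 0.00275). *Slfn5* (ENSMUSG00000054404) was at 1.86, 10.9, 1.43 and 1.1 CPM in controls 1 to 4 and 31.5, 22.6, 35.6 and 18.4 CPM in mutants 1 to 4. Control replicate 2 was above the other controls and below the lowest mutant (log2 fold change 2.82, SE 0.74, adjusted p = 0.0378). The call for *Slfn5* was kept only when control replicate 2 was left out (adjusted p = 0.000531) and was lost without any of the other 7 libraries, with adjusted p-values of 0.0567 to 0.0954. Its exons overlap those of the antisense gene *Slfn5os* by 559 bases, and the counts do not separate strands. *Slfn8* was at 14.4 ± 5.79 CPM in controls and 17.4 ± 7.69 CPM in mutants (SD, n = 4 each) with overlap (log2 fold change 0.27, SE 0.39, adjusted p = 0.709).

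The interferon-inducible GTPases, which coat the vacuoles of intracellular pathogens and are known above all as targets of type II interferon, overlapped between the groups in all 5 genes. In edgeR none of the 5 was called, 1 was higher at an unadjusted p-value under 0.05 and 1, *Gbp2*, rose by DESeq2, and their median log2 fold change was -0.21. *Igtp* was at 32.4, 47, 35.9 and 43 CPM in controls 1 to 4 and 32.6, 29.5, 38.4 and 34 CPM in mutants 1 to 4, with the groups overlapping (log2 fold change -0.23, SE 0.17, adjusted p = 0.413), and its exons overlap those of *Irgm2*. *Irgm1* was at 46.1 ± 8.15 CPM in controls and 39.8 ± 11.9 CPM in mutants (SD, n = 4 each) (log2 fold change -0.21, SE 0.24, adjusted p = 0.623). The neighbours on chromosome 3 differed in sign without passing the test, *Gbp7* at -0.32 (adjusted p = 0.335), *Gbp3* at -0.08 (adjusted p = 0.9) and *Gbp2* at 1.04 (adjusted p = 0.1), and *Gbp3* turned sign with library totals as the scale or without mutant replicate 2. Summed over the 5, the level was 127, 166, 168 and 150.5 CPM in control replicates 1 to 4 and 144, 122, 152 and 126 CPM in mutant replicates 1 to 4. The 5 signalling genes were likewise without a call in edgeR, with 1 higher and 1 lower both at an unadjusted p-value under 0.05 and by DESeq2, *Trim30a* and *Dtx3l*. *Stat2*, which encodes a part of the ISRE-binding complex, was at 17.5 ± 2.88 CPM in controls and 15.6 ± 6.37 CPM in mutants (SD, n = 4 each) (log2 fold change -0.17, SE 0.34, adjusted p = 0.79). *Parp9* and *Dtx3l* encode partners that modify histones. They are read from the same stretch of chromosome 16 on opposite strands and share 458 exon bases that the counts cannot assign. They were at -0.59 (adjusted p = 0.238) and -0.75 (adjusted p = 0.0805), and *Dtx3l* was called lower without mutant replicate 1 (log2 fold change -0.98, adjusted p = 0.0248). *Parp14* was at 0.69 (adjusted p = 0.221), and *Trim30a*, whose product restrains Toll-like receptor signalling, was at 0.66 without overlap (adjusted p = 0.0813) and was called without mutant replicate 2 (adjusted p = 0.0492) and with library totals (0.0388).

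**Figure D3:**
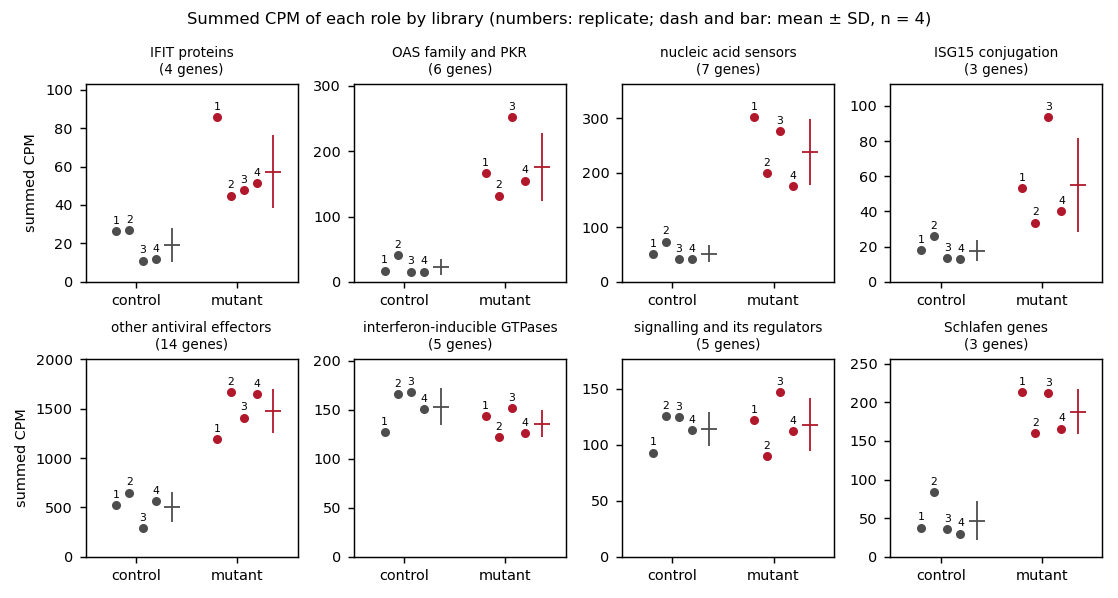
Summed CPM of the genes of each of 8 roles (y axes, linear from 0, scaled separately) in the 4 control and 4 mutant libraries, with points numbered by replicate and a dash with bar at the mean ± SD. Mutants lie above controls without overlap in 6 roles, while the GTPases and the signalling genes overlap.

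Matches to the ISRE core were about as frequent among genes that rose as among the others. The ISRE core was in the window of 10 of 14 called genes (71.4%) and of 14 of 22 genes without a call (63.6%), and the GAS core was in 3 of 14 (21.4%) and 6 of 22 (27.3%). *Oasl1*, *Oasl2*, *Xaf1* and *Slfn2* rose with no match of these letters in their window, and *Gbp2*, *Gbp3*, *Irgm1*, *Stat2* and *Rsad2* held the ISRE core and were not called. Many of the genes are neighbours. With neighbours joined when less than 500 kb apart, 27 of the 47 genes lay in 10 clusters of 2 or more, and 13 of the 19 called genes were among them. In the PYHIN, *Oasl* and *Ifitm* clusters each of the 47 genes present was called, and in the *Gbp*, *Mx*, *Rsad2* and *Parp9* clusters none was in edgeR, while DESeq2 called *Gbp2*, *Mx1*, *Rsad2* and *Dtx3l* of these. Interferon targets outside the 47 were also tested in some clusters. In edgeR 3 of 5 rose in the PYHIN cluster and 2 of 3 in that of *Oas1a*. In the *Ifitm* cluster 0 of 2 rose and in the Schlafen cluster 0 of 3, and 0 fell in these clusters.

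Per length, *Ifitm3* and *Ifi27* led in both groups, and genes further down exchanged places. On the scale of mean CPM per kb of exon, *Ifitm3* was first and *Ifi27* second in both, at 165 ± 74.9 and 162 ± 52.5 in controls and 688 ± 172 and 325 ± 89.5 in mutants (SD, n = 4). In controls *Ifitm3* and *Ifi27* did not differ beyond their spread. *Bst2* (52.5 ± 22.2) and *Ifitm2* (33 ± 12.2) followed in controls, and their places were exchanged in mutants (178 ± 81 and 211 ± 62.9), within the spread in both groups. *Ifi207* moved from place 28 of 47 in controls (1.59 ± 0.549) to place 6 in mutants (33.8 ± 9.66), *Oasl1* from 24 to 9, *Rtp4* from 19 to 7 and *Oas2* from 47, the lowest, to 28. *Igtp* went the other way, from place 6 (19.6 ± 3.3) to 12 (16.6 ± 1.83).

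**Figure D4:**
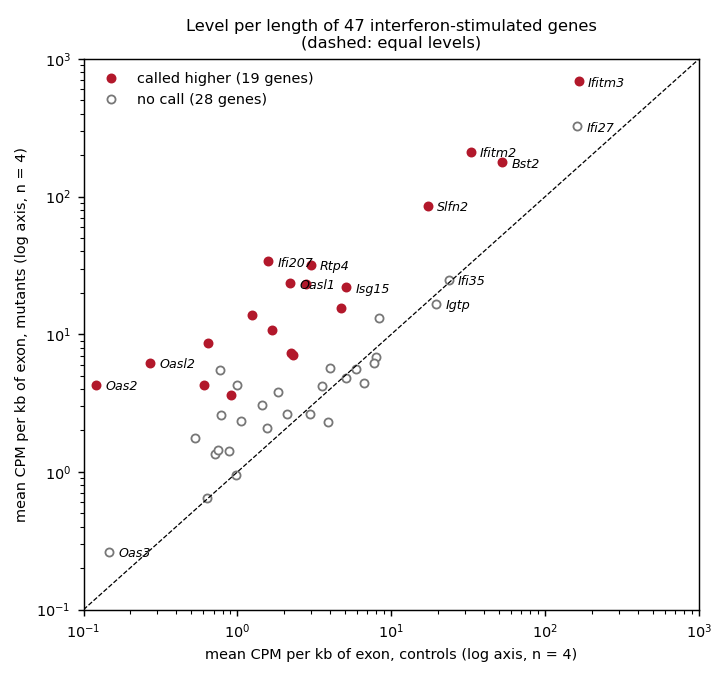
Mean CPM per kb of exon of the 47 genes in controls (x axis, log scale) and mutants (y axis, log scale), n = 4 each, with filled points for the 19 genes called higher and the dashed line at equal levels. Called genes span the range from *Oas2*, at 0.121 in controls, to *Ifitm3*, at 165.

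Genes that make and read interferon moved in both directions. Of 56 listed pathway genes, 38 were tested, 5 rose (13.2%, against 4.36% of all tested genes) and 10 fell (26.3%, against 7.97%), with a median log2 fold change of -0.49. Of 20 ligand genes, *Ifnb1* and *Ifng* passed the count rule. *Ifnb1* was at 0.414, 1.69, 1.34 and 0 CPM in controls 1 to 4 and 1.12, 0.259, 2.03 and 4.33 CPM in mutants 1 to 4, and the groups overlapped (log2 fold change 1.16, SE 1.21, adjusted p = 0.58). *Ifng*, the type II interferon of T and NK cells, was at 1.29, 2.29, 0.0839 and 1.88 CPM in controls 1 to 4 and 6.8, 4.95, 1.78 and 5.58 CPM in mutants 1 to 4, with an overlap of mutant replicate 3 with the controls (log2 fold change 1.78, SE 0.80, adjusted p = 0.18). The 14 *Ifna* genes together had 0 counts in every library but control replicate 3, which had 56, and a count of 0 in a library allows up to 3 counts. Cells outside the sort were not measured.

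**Figure D5:**
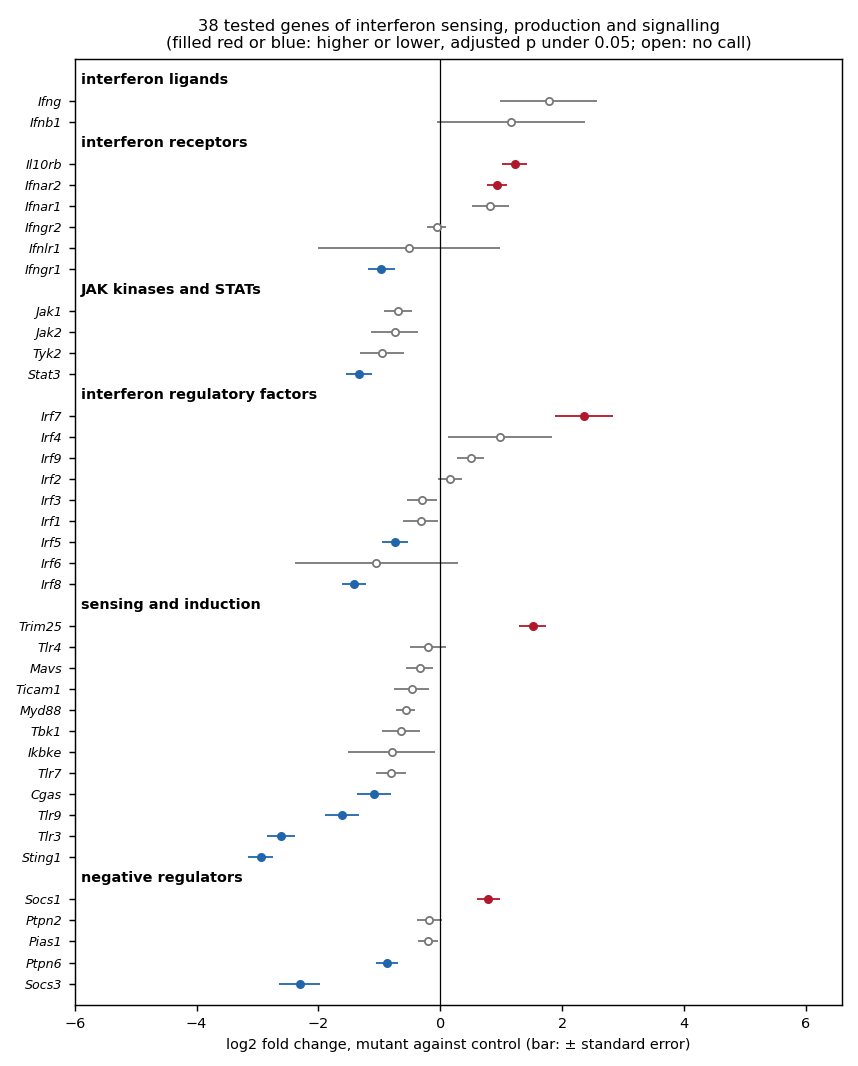
Log2 fold change of the 38 tested genes of interferon production, reception and control in mutants against controls (x axis, log2 units, bars ± standard error), grouped by role, with red for the 5 genes called higher, blue for the 10 called lower and open points for no call. *Irf7* lies farthest right at 2.36 and *Sting1* farthest left at -2.95.

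Among receptors, *Ifnar2* was at 150.2, 188, 226 and 201 CPM in controls 1 to 4 and 343, 322, 427 and 365 CPM in mutants 1 to 4, every mutant above every control (log2 fold change 0.93, SE 0.17, adjusted p = 0.00766). *Ifnar1*, its partner chain, was at 75.5 ± 18.7 CPM in controls and 133 ± 51.2 CPM in mutants (SD, n = 4 each) and overlapped (log2 fold change 0.82, SE 0.30, adjusted p = 0.108). *Il10rb*, a chain of the receptors for type III interferon and interleukin-10, rose (log2 fold change 1.22, SE 0.20, adjusted p = 0.00461), and *Ifngr1*, the binding chain of the type II receptor, fell (log2 fold change -0.97, SE 0.22, adjusted p = 0.0207), a call that was lost without control replicate 2 or mutant replicate 2 or 4 (adjusted p up to 0.0636). Exons of *Ifnar2* and *Il10rb* overlap those of the readthrough gene *Gm21970*. *Ifngr2* was at -0.06 (adjusted p = 0.843) and *Ifnlr1* at -0.51 (adjusted p = 0.865). None of the kinases passed the test, with log2 fold changes of -0.69 for *Jak1* (adjusted p = 0.0875), -0.75 for *Jak2* (adjusted p = 0.243) and -0.96 for *Tyk2* (adjusted p = 0.114). *Stat3* fell (log2 fold change -1.33, SE 0.21, adjusted p = 0.0039).

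*Irf7*, the factor that amplifies type I interferon production and is itself a target, was at 19.9, 33.2, 8.51 and 7.77 CPM in controls 1 to 4 and 95.5, 70.5, 123 and 67.6 CPM in mutants 1 to 4. All 4 mutants were above all 4 controls, with control replicate 2 again the highest control (log2 fold change 2.36, SE 0.48, adjusted p = 0.0128). *Irf9* was at 36.3, 64.5, 50.8 and 56.4 CPM in controls 1 to 4 and 71.2, 54.5, 88.6 and 80.4 CPM in mutants 1 to 4 with overlap (log2 fold change 0.50, SE 0.22, adjusted p = 0.167). *Irf8*, a factor on which microglia depend, fell (log2 fold change -1.42, SE 0.20, adjusted p = 0.00184). *Irf5* fell as well (log2 fold change -0.74, SE 0.21, adjusted p = 0.0481), a call kept without control replicate 1 and lost without any of the other 7 libraries (adjusted p up to 0.118).

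Of 12 genes that sense nucleic acid or relay to interferon, 4 fell and 1 rose. *Sting1*, which encodes the adaptor of cytosolic DNA sensing, was at 494, 566, 843 and 792 CPM in controls 1 to 4 and 76.2, 94.6, 92.6 and 85.8 CPM in mutants 1 to 4. The groups did not overlap (log2 fold change -2.95, SE 0.21, adjusted p = 7.8e-05). Beside it, the 6 microglial markers had a median log2 fold change of -4.16 and a range of -6.64 to -1.32, in which *Sting1* lay. *Cgas*, the enzyme that feeds STING, fell (log2 fold change -1.09, SE 0.28, adjusted p = 0.0346), a call lost without control replicate 2, 3 or 4 or mutant replicate 1, 2 or 4 (adjusted p up to 0.102). *Tlr3*, a receptor for double-stranded RNA, was at 36.9, 36.5, 38.9 and 31.3 CPM in controls 1 to 4 and 5.43, 5.88, 4.12 and 7.9 CPM in mutants 1 to 4, without overlap (log2 fold change -2.62, SE 0.23, adjusted p = 1.8e-04). *Tlr9*, a receptor for DNA, also fell (log2 fold change -1.61, SE 0.28, adjusted p = 0.00634), while *Trim25*, which ubiquitinates RIG-I, rose (log2 fold change 1.52, SE 0.22, adjusted p = 0.00261). Of the inhibitors, *Socs1* rose (log2 fold change 0.79, SE 0.19, adjusted p = 0.0253), a call lost without control replicate 1, 3 or 4 or mutant replicate 2 or 3 (adjusted p up to 0.077), and *Socs3* and *Ptpn6* fell (log2 fold changes -2.31 and -0.87, adjusted p-values 0.00213 and 0.014).

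Interferon targets outside the 47 also included many rises. This list too was chosen with earlier results of these data known, and some of its genes are near copies or neighbours of the 47. Of 61 further genes, 59 were tested, 18 (30.5%) rose and 2 (3.39%) fell, against 4.36% and 7.97% of all tested genes. Their median log2 fold change was 0.86, against 0.01 over all tested genes. Without control replicate 4 or without mutant replicate 1, 11 rose. The rises included PYHIN genes of chromosome 1, *Ifi203* (log2 fold change 4.09), *Mndal* (3.82) and *Ifi213* (3.72). They also included further interferon-inducible GTPases, *Iigp1* (4.38), *Ifi47* (3.58), *Gbp8* (3.32), *Tgtp2* (1.49) and *Tgtp1* (1.19). The last 2 and *Ifi213* kept their call in at most 2 of the 8 fits that left out a library. Other GTPases of this list had no call, *Gbp6* (1.85), *Gbp4* (0.88), *Gbp5* (0.35), *Gbp9* (0.35) and *Irgm2* (-0.33). *Ifi47* was at 1.99, 1.54, 3.5 and 5.08 CPM in controls 1 to 4 and 36, 38.5, 41.4 and 29.3 CPM in mutants 1 to 4, every mutant above every control (log2 fold change 3.58, SE 0.39, adjusted p = 5.5e-04). The chemokine gene *Cxcl10*, whose product draws T cells, was at 12.7, 28.6, 13.5 and 9.68 CPM in controls 1 to 4 and 76.1, 36, 78.2 and 57.1 CPM in mutants 1 to 4, with no overlap (log2 fold change 1.94, SE 0.38, adjusted p = 0.0115). *Apobec3*, an editor of viral DNA, and *Ly6e* fell (log2 fold changes -0.95 and -0.78, adjusted p-values 0.00745 and 0.0245), and *Ly6e* lost its call without control replicate 3 or 4 or mutant replicate 1, 2 or 4.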

How the data were processed

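RNA from sorted microglia was sequenced as 8 unstranded single-end libraries per the labels. The authors deposited raw counts per gene, whole numbers with no normalization, and the submitters' processing notes name featureCounts, DESeq2 1.28 and mm10, with alignment by Rsubread per the study's methods. The study's methods describe a paired-end library kit that differs from the labels, and the labels were followed. Libraries held 35639502 to 41946479 counts, which sets the counting precision of a gene, while p-values measure the spread between libraries (biological coefficient of variation 0.542).

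Genes that reached 10 counts in 4 or more libraries were tested with edgeR 4.0.16 (R 4.3.3) by the quasi-likelihood test with TMM factors, and p-values were Benjamini-Hochberg adjusted over all 20153 genes, with a call under 0.05. All adjusted p-values in the text come from this test unless DESeq2 1.42.0, the alternative, is named. Fold changes are mutant over control, CPM use TMM-scaled library sizes, and log2 CPM use a prior count of 2. Other alternatives were size factors, library totals, other count filters, a replicate block and leaving out each library. The fitting code was tested on simulated counts, drawn with edgeR's estimates of spread, with 189 of 19324 genes changed by 2 log2 units. EdgeR recovered 47.6% of them with 4.26% of its calls false, and DESeq2 recovered 62.4% with 33.7% false. Genes without a call can therefore include changed ones. Levels between genes were compared per kb of merged GENCODE M21 exons. The share of 50-base words found in other genes' transcripts marked genes whose reads can be split. Tables and plots used Python 3.11.15, pandas 2.3.3 and matplotlib 3.10.9.

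The members and lists were chosen with earlier results of these data known. All 47 genes could be named, with each library's value for those called and for the 4 most abundant. Of other genes, those called and the main receptors, kinases and factors could be named. Outside that rule, some genes without a call were named beside called genes of their family. By the rule, promoter stretches were shown for called genes with the ISRE core before the start, *Isg15* among them, and for *Ifit1*. Those of *Igtp* and *Gbp7* were added after their values were seen. Some genes of the lists are not reported here.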

Additional observations from a re-analysis of the deposited data

Results flagged for a closer look

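Of 180 sets of 4 libraries examined, 1 per gene and group, 8 held a library set apart from the other 3 by Dixon's ratio of gap to range (above its 95% critical value), a share of 4.44% where chance gives about 1 in 20. Control replicate 2 was the library set apart in 5 of the 8. In that library *Oas1a* was at 12.9 CPM where the other controls were at 1.89 to 3.36 CPM (ratio 0.866), and *Slfn5* was at 10.9 CPM against 1.1 to 1.86 CPM (0.922). *Dhx58* was at 26.5 CPM there against 12.4 to 14.2 CPM (0.872). Among interferon targets outside the 47, *Oas1g* was at 5.94 CPM against 1.73 to 2.31 CPM (0.862), and *Gbp8* was at 1.61 CPM against 0.616 to 0.726 CPM (0.889).

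The other 3 libraries set apart differed from gene to gene. *Zbp1* was at 19.7 CPM in mutant replicate 1 and at 9.63 to 11.2 CPM in the other mutants (ratio 0.844). *Sp100*, which encodes a nuclear body protein, was at 66.4 CPM in mutant replicate 3 and at 39.1 to 42.2 CPM in the others (0.886). *Trim30a* was low in control replicate 1, at 26.8 CPM against 36.6 to 37.0 CPM (0.961).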

How the results depend on the processing

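The count of the 47 genes called higher stayed between 16 and 26 under every alternative run: 26 by DESeq2, 19 with DESeq2-type size factors in edgeR, 21 with library totals, 19 with no filter, 20 of 44 with 10 counts in all 8 libraries, and 16 to 19 when 1 library was left out. By DESeq2, 1 of the 47 was lower and 1903 of all genes were higher. With 1 library left out, 0 to 1 of the 47 were lower, their median log2 fold change was 1.08 to 1.57, 525 to 1024 of all genes were higher and 1005 to 1587 lower, and 11 to 15 of the other interferon targets were higher and 1 to 3 lower. The all-gene counts moved by more than 1.5 times without control replicate 2 (525 higher, 1047 lower), control replicate 3 (562 and 1005) and mutant replicate 2 (573 higher), and the median of the 47 was 1.57 without control replicate 1. The cause was not tested. Library totals shifted the median log2 fold change of all genes from 0.01 to 0.13, and the median of the 47 minus that of all genes was 1.15 with TMM and 1.12 with library totals.

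The signs that turned belonged to genes near 0 without a call. With library totals the log2 fold changes were 0.03 for *Dhx58*, 0.05 for *Herc6*, 0.03 for *Gbp3* and 0.05 for *Ifngr2*. With 1 library left out, the ranges were -0.2 to 0.23 for *Dhx58*, -0.3 to 0.17 for *Herc6*, -0.29 to 0.3 for *Samd9l*, -0.29 to 0.14 for *Gbp3*, -0.36 to 0.08 for *Stat2* and -0.15 to 0.05 for *Ifngr2*. They were above 0 for *Dhx58* without control 2 or mutant 4 (0.23, 0.01), *Herc6* without controls 1, 2 or mutants 2, 4 (0.11, 0.06, 0.04, 0.17), *Gbp3* without mutant 2 (0.14), *Stat2* without mutant 4 (0.08) and *Ifngr2* without control 4 or mutant 2 (0.05, 0.01), and below 0 for *Samd9l* without controls 3, 4 or mutants 3, 4 (-0.29, -0.01, -0.11, -0.14).

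Same-numbered control and mutant libraries had correlations of their deviations across genes of 0.166, 0.018, 0.144 and 0.114. Not every library correlated best with its own number, so the numbers were not taken as a pairing. With the replicate block, 20 of the 47 genes were higher and 0 lower, their median log2 fold change was 1.42, 12 of the other interferon targets were higher, and 886 of all genes were higher and 1497 lower. The gene added among the 47 was *Ifi27* (log2 fold change 1.04, adjusted p = 0.0199). Whether depth limited calls was not tested. Of the 47 genes, *Oas2*, *Ifi44* and *Ifi211* had under 10 counts in at least 1 library.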
